A study of Saccharomyces cerevisiae with 12 samples.

Results

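To determine how yeast gene expression differed when 4-epidoxycycline (4-ED) was added to the medium, the values of *Saccharomyces cerevisiae* cultures grown with 4-ED were compared with those of control cultures. The study held 12 cultures of the haploid MATa strain R1158, made from BY4741. It has the his3-1, leu2-0 and met15-0 alleles and, at URA3, the transactivator tTA under the CMV promoter, so that every group, the controls included, carried tTA. The labels name the strain BY4741. There were 3 control cultures in rich glucose medium (YPD) and 3 each with 4-ED, doxycycline (Dox) or tetracycline (Tet) at 1.5 µg/ml. All cultures were seeded from an exponential culture and collected within the same range of optical density, which the cultures with a tetracycline took longer to reach. Time in culture and the compound therefore cannot be told apart. The comparison of 4-ED with control listed 7080 loci, of which 6653 had been marked as testable by the authors' software and are the members described here. Of these, 6629 had a value above 0 in both groups and 24 were listed at 0 in a group.

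Expression was given as FPKM, the fragment count of a gene corrected for its length and for library size, with 1 value per group that combined the 3 libraries. There was therefore no spread between cultures, no test and no interval for any ratio below, and the tables used here do not give the number of reads behind a value. Ratios are given as log2 of the 4-ED value over the control value, and a number in parentheses after FPKM values is this log2 ratio. A gene is said to have risen or fallen when its ratio was at least 1.5-fold, a log2 ratio of 0.58 in size, at a mean of the control and 4-ED values of at least 10 FPKM. This limit is a size, and says nothing about chance. Protein-coding genes whose locus spans 500 bp or more (long genes, below) were kept apart from all loci under 500 bp (short loci). Fewer RNA molecules per cell and fewer cells carrying them cannot be told apart in such bulk samples.

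4-ED is the epimer of Dox, with the opposite configuration at the carbon that bears the dimethylamino group. Tetracyclines bind bacterial ribosomes and can also act on mitochondrial ribosomes, and in yeast they are used to switch tTA-driven promoters. In glucose medium yeast runs glycolysis and represses the genes of gluconeogenesis and the glyoxylate cycle, which rebuild sugars from acetate and other small carbon compounds. These genes are switched on as glucose runs out, through the Snf1 kinase and the zinc cluster activators Cat8 and Sip4, which bind the carbon source response element in their promoters.

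LEU2 and MET17, the gene of the met15 allele, were listed at 0 FPKM in both groups. HIS3, of which the his3-1 allele removes only an internal part, had 63.0 FPKM in the controls and 60.5 with 4-ED, and URA3, the site of the tTA insertion, had 229.7 and 298.3. MATa genes were present, with STE2, the alpha-factor receptor, at 141 and 109 FPKM and MFA1, a gene of a-factor, at 1912 and 2252. Among MATalpha genes STE3, the a-factor receptor, had 4.67 and 5.10 FPKM, MF(ALPHA)1 26.7 and 36.2, MF(ALPHA)2 33.2 and 32.5, and SAG1 23.0 and 21.97.

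At a mean of at least 10 FPKM there were 4728 long genes and 794 short loci. Among the long genes 42 rose (0.888%) and 67 fell (1.42%), and the median log2 ratio was -0.04, with 90% of genes lying between -0.39 and 0.35. Another listed locus overlaps 11 of the 42 and 15 of the 67, so that their reads may be shared. Among the short loci 138 rose (17.4%) and 21 fell (2.64%), and the median was 0.19. A further 352 loci of 500 bp or more were not annotated as protein-coding, of which 57 rose (16.2%) and 16 fell (4.55%). Of these 352, 338 overlap another listed locus, so that their reads cannot be assigned to them alone, and they are not described further apart from the RNA genes among them. The long gene just inside the limit was IDP2 at 0.59 and the one just outside KAR3 at 0.58. Among the falls these were RRP9 at -0.59 and RRN11 at -0.58. The long gene just above the level of 10 FPKM was BBP1, with a mean of 10.02, and the one just below SMC2, with 9.99. Under that level lay 418 long genes with values in both groups, of which 31 were past 1.5-fold higher and 17 lower.

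**Figure D1:**
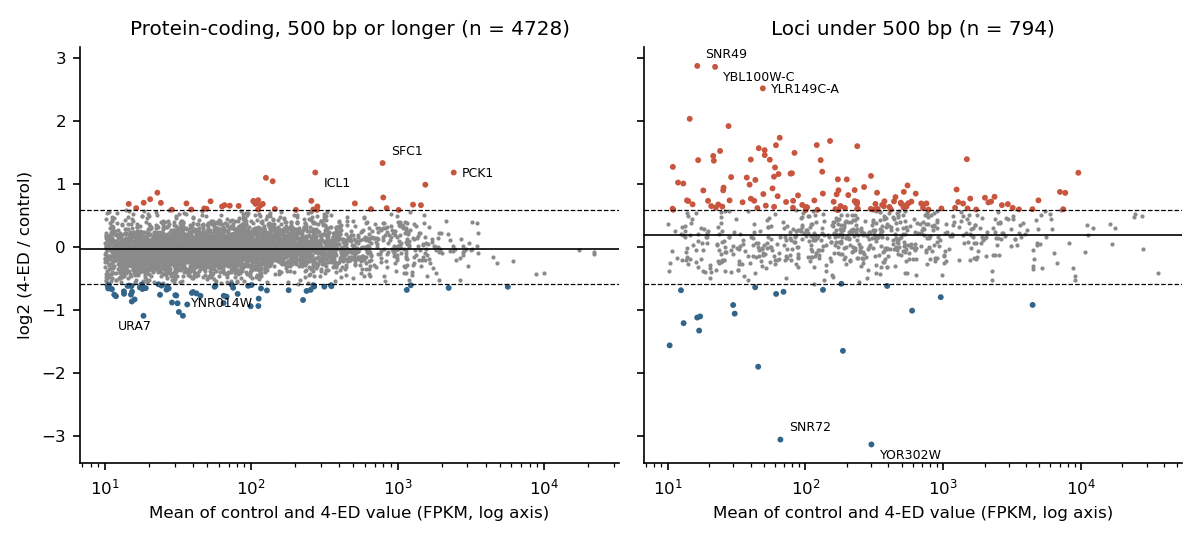
Log2 ratio of the 4-ED value over the control value (vertical axis) against the mean of both values (horizontal axis, FPKM, log scale), for 4728 long protein-coding genes (left) and 794 loci under 500 bp (right). Each point is a locus, red past 1.5-fold higher and blue past 1.5-fold lower, dashed lines mark 1.5-fold and the solid line the median, which lies at -0.04 on the left and 0.19 on the right.

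The top 3 rises among the long genes were in gluconeogenesis and the glyoxylate cycle, in SFC1, ICL1 and PCK1. Of the 17 genes listed for these pathways, 6 rose and 0 fell, against 0.888% and 1.42% of all long genes, and 16 had a ratio above 0. The median log2 ratio of the 17 was 0.41, beside -0.04 for all long genes. The members that rose and hold the carbon source response element are shown first, with the element and the bases around it. Each stretch is read 5′ to 3′ on the strand of the gene from the R64 genome of RefSeq, and capitals mark the element, which lies on either strand. The stretches are those of SFC1 (chrX:609254-609320, plus strand), ICL1 (chrV:287274-287340, minus strand), PCK1 (chrXI:630562-630628, plus strand), FBP1 (chrXII:875258-875324, minus strand), MDH2 (chrXV:83259-83325, minus strand) and IDP2 (chrXII:504260-504326, plus strand).
SFC1: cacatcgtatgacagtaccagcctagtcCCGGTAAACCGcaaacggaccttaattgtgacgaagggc
ICL1: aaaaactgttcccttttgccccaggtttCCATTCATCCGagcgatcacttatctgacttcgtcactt
PCK1: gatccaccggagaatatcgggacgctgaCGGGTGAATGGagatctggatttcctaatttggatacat
FBP1: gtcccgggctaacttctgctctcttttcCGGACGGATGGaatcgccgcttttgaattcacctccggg
MDH2: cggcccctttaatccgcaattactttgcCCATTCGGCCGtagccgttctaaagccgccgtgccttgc
IDP2: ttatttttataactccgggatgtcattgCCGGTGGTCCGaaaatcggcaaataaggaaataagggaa
The element's core, which is CC and CCG with 6 bases between them on either strand, was found within 600 bases upstream of the start codon in 12 of the 17 genes and in 24.7% of the 6005 nuclear protein-coding genes with that many bases. Its longer consensus was found in 8 of the 17 genes and in 0.533% of all genes. A consensus match is always a core match too. The elements printed for ICL1, PCK1, FBP1 and MDH2 match the consensus, and those of SFC1 and IDP2 the core only. A match is a description of the sequence and does not show that a factor was bound.

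SFC1 (YJR095W, chromosome X, 609773 to 610741), the mitochondrial carrier that exchanges succinate for fumarate, rose from 449.6 to 1132 FPKM (1.33 on the log2 scale), the highest ratio of all long genes. ICL1 (YER065C, chromosome V, 285241 to 286914), isocitrate lyase, which opens the glyoxylate cycle, rose from 167.6 to 380.3 FPKM (1.18). PCK1 (YKR097W, chromosome XI, 631152 to 632801), phosphoenolpyruvate carboxykinase, rose from 1482 to 3359.9 FPKM (1.18). These genes were already well expressed in the control cultures, and their values with 4-ED were more than 2-fold higher. FBP1 (YLR377C, chromosome XII, 873746 to 874792), fructose-1,6-bisphosphatase, the last committed step of gluconeogenesis, rose from 1038 to 2058 FPKM, by 0.99. MDH2 (YOL126C), the cytosolic malate dehydrogenase, rose from 83.5 to 139.7 FPKM, by 0.74, and IDP2 (YLR174W), the cytosolic NADP-dependent isocitrate dehydrogenase, from 813 to 1222 FPKM, by 0.59. The other members stayed under 1.5-fold. MLS1, malate synthase, had 740 FPKM in the controls and 1065 with 4-ED, a log2 ratio of 0.53, and the acetate transporter ADY2 257 and 341 FPKM, a ratio of 0.41. Among the regulators SIP4 had a ratio of 0.49, CAT8 of 0.10 and ADR1 of 0.09. The peroxisomal citrate synthase CIT2, at 1760 and 1786 FPKM, and the pyruvate carboxylase PYC2 had ratios of 0.02 and -0.02.

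**Figure D2:**
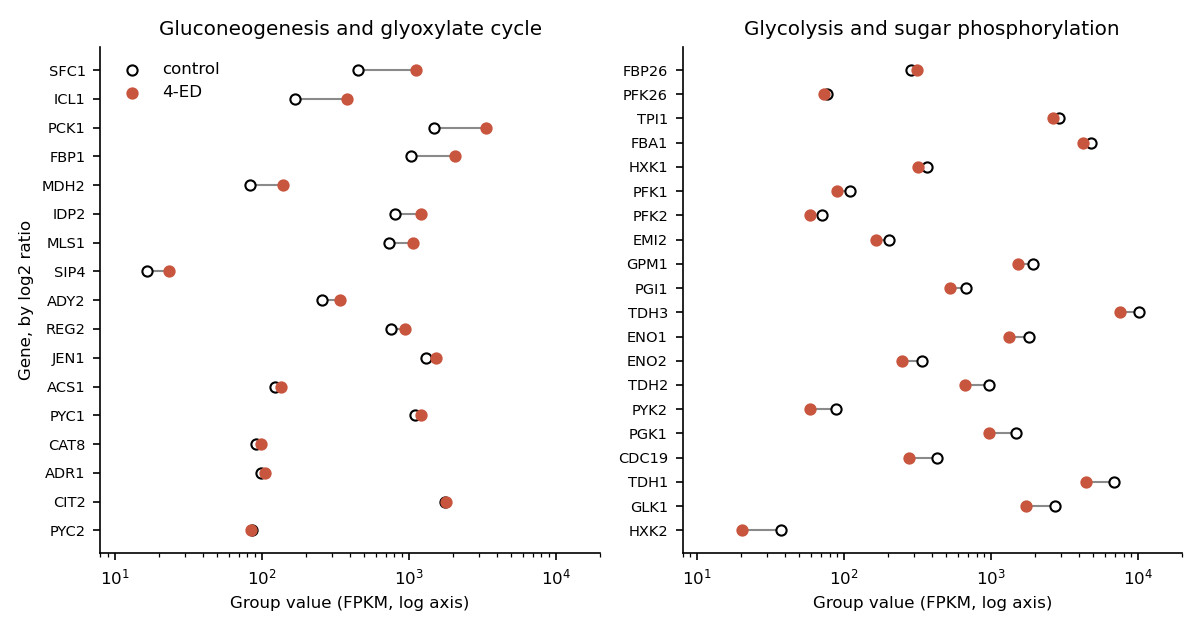
Group values in control (open circles) and 4-ED cultures (filled circles) in FPKM on a log axis, for the 17 genes of gluconeogenesis and the glyoxylate cycle (left) and the 20 genes of glycolysis at or above 10 FPKM (right), ordered by log2 ratio. Each circle is 1 combined value of 3 libraries, so no error can be drawn. SFC1 moves from 449.6 to 1132 FPKM, and 19 of the 20 glycolysis genes lie lower with 4-ED.

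Genes of glycolysis and sugar phosphorylation moved the other way. Of 20 members, 6 fell and 0 rose, beside 1.42% and 0.888% of all long genes, 1 had a ratio above 0, and the median was -0.39. HXK2 (YGL253W, chromosome VII, 23935 to 25395), the main hexokinase on glucose and a part of glucose repression, fell from 37.3 to 20.2 FPKM (-0.88). The glucokinase GLK1 fell from 2732 to 1740 FPKM (-0.65), and, like those of PGK1 and CDC19, its locus in the table overlaps another gene. TDH1, a glyceraldehyde-3-phosphate dehydrogenase, fell from 6891 to 4446 FPKM (-0.63), and PGK1, phosphoglycerate kinase, from 1487 to 975 FPKM (-0.61). The pyruvate kinases CDC19 and PYK2 fell from 428.6 to 278 FPKM (-0.62) and from 88.5 to 58.5 FPKM (-0.60). The most abundant member, TDH3, had 10144 FPKM in the controls and 7563 with 4-ED, a ratio of -0.42. TDH1, TDH2 and TDH3, as well as ENO1 and ENO2, are closely similar in sequence, so that reads may have been split between them. The single member with a ratio above 0 was FBP26, fructose-2,6-bisphosphatase, at 0.14, an enzyme that removes the activator of phosphofructokinase.

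Genes that connect these pathways to glucose signalling were lower or little different, beside 1.42% of all long genes fallen and 0.888% risen. TDA1, a kinase that phosphorylates Hxk2 when glucose is low, fell from 49.8 to 30.3 FPKM (-0.72). It was the only member to pass the limit among 13 kinases and repressors of glucose repression, whose median was -0.19. VID24, the subunit of the GID ubiquitin ligase that recognises gluconeogenic enzymes for degradation, fell from 296 to 182 FPKM (-0.70), and the median of the 10 GID genes was -0.07. Of 10 hexose transporters and glucose sensors at this level, 0 passed the limit, between MTH1 at -0.36 and SNF3 at 0.20. PDE2, the high-affinity cAMP phosphodiesterase, fell from 56.9 to 33.2 FPKM (-0.78), alone among 14 genes of the cAMP pathway. SUC2, invertase, which belonged to no list, fell from 91.9 to 58.7 FPKM (-0.65). ALD3, a cytosolic aldehyde dehydrogenase, fell from 290.3 to 162 FPKM (-0.84), alone among 13 genes of ethanol and acetate metabolism, in which PDC6 was highest at 0.53.

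The glycerol genes divided. STL1 (YDR536W, chromosome IV, 1508005 to 1509714), the proton symporter that takes up glycerol, rose from 91.7 to 188.8 FPKM (1.04), and GUT1, glycerol kinase, from 523 to 794 FPKM (0.60). GPP2 (YER062C, chromosome V, 279930 to 280682), a glycerol-3-phosphatase of glycerol synthesis, fell from 130.4 to 67.9 FPKM (-0.94). Under the limit, the synthetic dehydrogenase GPD1 had a ratio of -0.16 and the mitochondrial GUT2 of 0.14. The median over the 14 genes was -0.19, beside -0.04 for all long genes, of which 0.888% rose and 1.42% fell.

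Genes for daughter cell separation formed the list with the lowest median, -0.52 over 11 genes. They are expressed in the daughter after mitosis and mostly encode enzymes that cut the septum. Of the 11, 4 fell and 0 rose, beside 1.42% and 0.888% of all long genes, whose median was -0.04. SCW11 (YGL028C, chromosome VII, 441281 to 442909), a glucanase-like wall protein, fell from 84.1 to 45.4 FPKM (-0.89) and EGT2, a cell wall endoglucanase, from 52.9 to 31.7 FPKM (-0.74). AMN1, an antagonist of mitotic exit in daughters, fell from 142.9 to 90.5 FPKM (-0.66) and SUN4 from 69.0 to 45.1 FPKM (-0.61). The chitinase CTS1, at 727 and 542 FPKM, and DSE2, at 252 and 168 FPKM, had ratios of -0.42 and -0.58, and ASH1 was highest at 0.09. Cell wall proteins and glucan synthases were also low, with 2 of 16 long genes fallen and 0 risen at a median of -0.25. They were the mannoprotein TIP1, from 1426 to 889 FPKM (-0.68), and PIR1, from 327 to 212 FPKM (-0.63).

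Nucleotide synthesis genes were on the low side. For comparison, 1.42% of all long genes fell and 0.888% rose, with a median of -0.04. URA7 (YBL039C, chromosome II, 143989 to 145728), the main CTP synthase, had the largest fall of all long genes, from 25.02 to 11.7 FPKM (-1.09). Its locus overlaps another listed locus. FUR1, uracil phosphoribosyltransferase of the salvage pathway, fell from 40.9 to 21.97 FPKM (-0.89). Over the 12 pyrimidine genes the median was -0.23, 2 fell and 0 rose, and 1 had a ratio above 0, which was URA3 at 0.38, the gene of the tTA insertion. In purine synthesis 1 of 16 genes fell and 0 rose, with 1 above 0 and a median of -0.27. The gene that fell was IMD4, an IMP dehydrogenase, from 23.3 to 14.8 FPKM (-0.66), whose intron carries snR54 and whose locus in the table overlaps it.

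Genes that build ribosomes were lower at low expression. Of 74 long genes for ribosome biogenesis 6 fell and 0 rose, and the median was -0.12. Over all long genes 1.42% fell, 0.888% rose and the median was -0.04. DBP2 (YNL112W, chromosome XIV, 413639 to 416281), a DEAD-box RNA helicase, fell from 43.1 to 21.1 FPKM (-1.03), HAS1, a helicase of both subunits' assembly, from 19.7 to 10.8 FPKM (-0.87), and NSR1, yeast nucleolin, from 101.2 to 60.4 FPKM (-0.75). UTP6, UTP8 and RRP9, all of the small subunit processome, fell by 0.61, 0.61 and 0.59 on the log2 scale. The loci of HAS1, NSR1 and RRP9 overlap other listed loci. RRP15 was the highest member at 0.55. The median differed with level, at 0.21 over the members at 100 FPKM or more. Long genes as a whole differed with level too. At 100 FPKM or more 59.1% of those past the limit had risen, beside 38.5% at 10 FPKM or more. RPA43, a subunit of RNA polymerase I, fell from 21.2 to 13.5 FPKM (-0.64), alone among 19 long genes of RNA polymerases I and III with a median of -0.15. The PAC motif GATGAG was found upstream of 76 of the 83 ribosome biogenesis genes listed and in 32.1% of all genes, and the RRPE motif AAAATTT in 79 of 83 and 37.6%, each within 600 bases on either strand. Both are shown in capitals for NSR1 (chrVII:807810-807871, minus strand) and DBP2 (chrXIV:413456-413517, plus strand), where PAC lies between or beside RRPE copies.
NSR1: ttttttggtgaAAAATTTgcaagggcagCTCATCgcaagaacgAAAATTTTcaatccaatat
DBP2: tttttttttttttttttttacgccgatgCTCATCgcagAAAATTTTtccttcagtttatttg

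Cytosolic ribosomal protein genes did not move as a group, with a median of 0.01 over 115 long genes. Of these 4 rose and 2 fell, beside 0.888% and 1.42% of all long genes. RPL39 rose from 587 to 1011 FPKM (0.78), RPS30B from 984 to 1568 FPKM (0.67), RPS30A from 1119 to 1772 FPKM (0.66) and RPL36B from 225 to 338 FPKM (0.59). All carry an intron inside the locus and encode small proteins, traits that were not compared here with those of the other members. RPL28 fell from 321 to 211 FPKM (-0.61), where the ratio with Dox was 0.18 and with Tet 0.35, and RPS9A from 121 to 79.8 FPKM (-0.61). The loci of RPL39, RPL36B and RPL28 overlap other listed loci. Among the 23 short members 4 rose and 1 fell at a median of 0.19, near the 17.4%, 2.64% and 0.19 of all short loci. RPL41A rose from 819 to 2152 FPKM (1.39) while its copy RPL41B, which encodes the same protein and may share reads with it, had 579.6 and 543 FPKM (-0.09). RPS28A rose by 0.61 and its copy RPS28B fell by 0.59 on the log2 scale, and the pair may share reads as well.

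CAR1 and CAR2 fell among the genes for arginine and proline breakdown. CAR1 (YPL111W, chromosome XVI, 339944 to 340945), arginase, fell from 147.2 to 76.8 FPKM (-0.94), and CAR2, ornithine aminotransferase, the next enzyme, from 86.0 to 49.8 FPKM (-0.79). The CAR2 locus overlaps another listed locus. The other 8 genes for arginine and proline breakdown stayed under the limit and the median of the 10 was -0.02. For comparison, 1.42% of all long genes fell and 0.888% rose, with a median of -0.04. The repressor site URS1, GCCGCC on either strand, which Ume6 binds, was found within 600 bases upstream in 3 of the 10 genes and in 11.4% of all genes. The 3 genes were CAR1, PUT3 and UME6. CAR2, which also fell, had no match. UME6 itself had 20.9 and 27.5 FPKM (0.39), the highest of the list. The CAR1 copy is shown in capitals (chrXVI:339761-339822, plus strand), since CAR1 fell the most in this list.
CAR1: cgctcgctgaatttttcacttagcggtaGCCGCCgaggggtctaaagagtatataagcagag
In arginine synthesis 1 of 10 genes fell, CPA1 (YOR303W, chromosome XV, 882899 to 884134), the small subunit of carbamoyl phosphate synthetase, from 314 to 196 FPKM (-0.68). Just upstream lies YOR302W (chromosome XV, 882765 to 882842), the short reading frame in the CPA1 leader that encodes the arginine attenuator peptide, by which arginine lowers CPA1 translation and stability. YOR302W fell from 541 to 61.5 FPKM (-3.14), the largest fall of any locus at this level. Its locus has 78 bp, and the part of length in this value was not tested. The corresponding ratios with Dox and Tet were -1.27 and -1.41 for YOR302W and -0.09 and 0.01 for CPA1.

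Single genes of nitrogen uptake and assimilation rose, beside 0.888% of all long genes risen and 1.42% fallen. GAP1 (YKR039W, chromosome XI, 515063 to 516871), the general amino acid permease, rose from 39.8 to 65.8 FPKM (0.72), alone among 17 targets of nitrogen catabolite repression, which had a median of 0.07. The ammonium permease MEP2 and the proline permease PUT4 stayed under the limit at 0.57 and 0.52. TAT1, a permease for aromatic and branched-chain amino acids, rose from 115 to 175 FPKM (0.60), alone among 16 amino acid permeases with a median of 0.10. GDH1, the NADP-dependent glutamate dehydrogenase that fixes ammonium, rose from 391 to 631 FPKM (0.69). On the synthetic side HOM3, aspartate kinase, fell from 20.5 to 11.5 FPKM (-0.83), HIS6, of histidine synthesis, from 49.1 to 29.6 FPKM (-0.73), and ILV5, of branched-chain synthesis, from 222 to 138 FPKM (-0.69). The HIS6 locus overlaps another listed locus. The medians were -0.12 over 26 genes for lysine, histidine and aromatic amino acids and -0.19 over 11 for branched-chain amino acids. No gene for methionine and sulfur assimilation passed the limit among 22, between SAM2 at -0.46 and MET12 at 0.21.

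**Figure D3:**
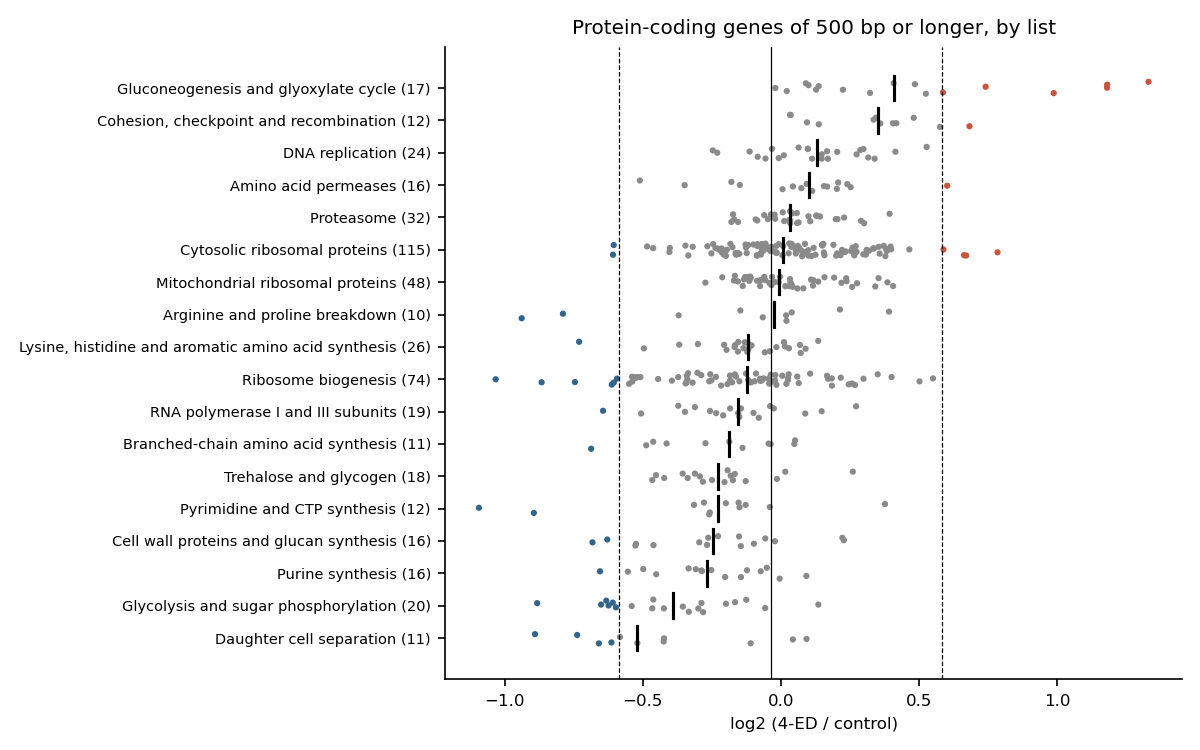
Log2 ratio of the 4-ED value over the control value for long protein-coding genes in 18 gene lists, with the number of genes in parentheses. Each point is a gene, red past 1.5-fold higher and blue past 1.5-fold lower. Short bars are list medians, from 0.41 for gluconeogenesis to -0.52 for daughter cell separation, the solid line is the median of all long genes (-0.04) and dashed lines mark 1.5-fold.

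Chromosome duplication and cohesion genes were mostly higher but under the limit. RTT107, a scaffold in repair of stalled replication forks, rose from 11.2 to 17.9 FPKM (0.68), alone among 12 cohesion, checkpoint and recombination genes, all of which had ratios above 0 with a median of 0.35. For all long genes the median was -0.04, and 0.888% rose and 1.42% fell. The cohesin genes SMC1, PDS5 and MCD1 had ratios of 0.58, 0.48 and 0.41. Over 24 long genes of DNA replication the median was 0.13 and 0 passed the limit, between MCM3 at -0.25 and POL30, the sliding clamp, at 0.53. The MCB element ACGCGT, which the G1/S factor MBF binds, was found within 600 bases upstream in 11 of the 18 cohesion and checkpoint genes listed, in 18 of 34 replication genes and in 6.35% of all genes. It is shown in capitals for RTT107 (chrVIII:402751-402812, plus strand), the member that rose.
RTT107: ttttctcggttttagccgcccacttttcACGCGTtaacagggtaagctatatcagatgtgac
Further rises belonged to no list and were chosen here after their values were seen. Among them were TOP2, topoisomerase II, from 55.5 to 87.3 FPKM (0.65), and the spindle pole gene SPC110, from 50.9 to 80.6 FPKM (0.66). The SPC110 locus overlaps another listed locus. The kinetochore genes SLK19 and KRE28 rose from 18.4 to 29.9 FPKM (0.70) and from 77.8 to 128.9 FPKM (0.73). ACM1, an inhibitor of the anaphase-promoting complex, rose from 16.2 to 29.5 FPKM (0.86).

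Few members of the stress and quality-control lists passed the limit, beside 1.42% of all long genes fallen and 0.888% risen. YDJ1, a cytosolic Hsp40, fell from 158 to 98.0 FPKM (-0.69), alone among 20 heat shock chaperones with a median of -0.19. ERO1, the oxidase of disulfide formation in the endoplasmic reticulum, fell from 38.8 to 22.7 FPKM (-0.77), alone among 16 genes of that compartment with a median of -0.06. Of 18 trehalose and glycogen genes 0 passed the limit, yet 16 had ratios under 0, between TSL1 at -0.47 and GLC3 at 0.26, with a median of -0.23. The stress response element CCCCT was found upstream of 15 of these 18 and in 39.7% of all genes. MSN4, an activator that binds this element and belonged to no list, fell from 68.4 to 44.1 FPKM (-0.63). In oxidative stress defence AHP1 was lowest at -0.53 and SOD2 highest at 0.39, and among 21 multidrug efflux genes AQR1 lowest at -0.50 and QDR1 highest at 0.10. The proteasome had a median of 0.03 over 32 genes, between RPN1 at -0.18 and PRE2 at 0.39.

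Mitochondrial DNA loci and reading frames named with a letter suffix are described below. Apart from these and the thiamine and pyridoxine list, the remaining lists of long genes had 0 members past the limit. In the TCA cycle IDH2 was lowest at -0.17 and ACO1 highest at 0.33. In peroxisomal beta-oxidation these were POT1 at -0.52 and TES1 at 0.17, in ergosterol synthesis ERG2 at -0.47 and ERG3 at 0.36, and in zinc and phosphate uptake PHO11 at -0.37 and ZAP1 at 0.29. Among iron uptake genes CCC2 was lowest at -0.35 and SIT1 highest at 0.52, while the short ATX1, a copper chaperone, rose from 171 to 284 FPKM (0.73). Among mitochondrial chaperones HSP60 was lowest at -0.46 and YTA12 highest at 0.25, and among mating genes BAR1 at -0.56 and STE12 at 0.22. Among histones the short HTZ1 was lowest at -0.07 and the long CSE4, the centromeric form, highest at 0.44. Among cyclins and cell cycle factors CLB5 was highest at 0.50. In the thiamine and pyridoxine list SNO2 rose from 39.3 to 59.7 FPKM (0.60) and SNO3 from 37.8 to 57.7 FPKM (0.61), copies that are nearly identical and may share reads.

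The largest changes that no list covered were few. Among the rises, RSO55, a mitochondrial protein, rose from 80.3 to 172 FPKM (1.10), ATG10, a conjugating enzyme of autophagy, from 15.1 to 25.6 FPKM (0.76), PRM4 from 194 to 322 FPKM (0.73) and PTH4 from 14.0 to 22.8 FPKM (0.70). RSO55 spans less than 500 bp in RefSeq and counts as long only because its locus is merged with an overlapping gene. Among the falls, YNR014W, of unknown function, fell from 46.5 to 21.8 FPKM (-1.09), CUR1, a sorting factor for misfolded proteins, from 47.8 to 25.3 FPKM (-0.91), and EEB1, an acyltransferase that makes ethyl esters, from 143.7 to 81.3 FPKM (-0.82). YIR020C, an uncharacterised frame whose locus is merged with others, fell from 15.1 to 8.76 FPKM (-0.78).

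Transcripts of the mitochondrial genome, which the mitochondrial ribosome translates, were higher with 4-ED. Of 14 loci at this level 7 rose and 0 fell, and 13 had a ratio above 0. Of all long genes 0.888% rose and 1.42% fell, and of all short loci 17.4% and 2.64%. Several of the 14 share a locus with others of them, so they are not 14 separate measurements. The ribosomal RNAs of the organelle rose, 15S_RRNA from 28.1 to 65.5 FPKM (1.22) and 21S_RRNA from 177 to 298 FPKM (0.75), as did RPM1, the RNA of mitochondrial RNase P, from 10.3 to 17.3 FPKM (0.74) and the frame Q0297, whose locus it shares, from 188 to 410 FPKM (1.13). OLI1, subunit c of the ATP synthase, rose from 1724 to 2995 FPKM (0.80). COX1, a core subunit of cytochrome oxidase, rose from 89.6 to 141.4 FPKM (0.66), and AI5_BETA, a frame within a COX1 intron, from 78.4 to 129.8 FPKM (0.73), but the table gives both the same locus. VAR1, the ribosomal protein encoded in the organelle, had 108 and 107 FPKM (-0.02). COB, COX2, COX3 and ATP6 had means under 10 FPKM, with ratios of 1.67, 0.77, 0.73 and 0.99. The medians over the 14 loci were 0.61 with 4-ED, 0.06 with Dox and 0.04 with Tet. Yeast mitochondrial transcripts carry no poly(A) tail and the libraries were selected for mRNA. Other RNAs without a tail are described below. Medians were 1.4 for tRNAs, 1.2 for U3, 1.06 for spliceosomal and 0.78 for H/ACA RNAs. The 37 C/D RNAs had a median of 0.14, with 11 risen and 5 fallen. SCR1, RPR1 and NME1 had ratios of 1.25, 1.07 and 0.56, and the nuclear 5S loci lay between 0.38 and 0.79. The part of the selection was not tested.

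Nuclear genes of the respiratory chain and ATP synthase differed by length. The 14 long members had a median of -0.01, between ATP2 at -0.06 and ATP5 at 0.23, and 0 passed the limit. The 21 short members had a median of 0.35, beside 0.19 for all short loci, and 4 rose, a share near the 17.4% of all short loci. They were subunits of cytochrome oxidase, COX7 from 4978 to 9119 FPKM (0.87), COX9 from 2522 to 3877 FPKM (0.62) and COX8 from 3538 to 5358 FPKM (0.60), and QCR7 of the bc1 complex, from 5918 to 8963 FPKM (0.60). ATP16 was lowest at -0.12. Mitochondrial ribosomal proteins divided in the same way, with a median of -0.01 over 48 long genes and 0.22 over 25 short ones, of which RSM27 rose from 319 to 496 FPKM (0.64).

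The difference between long and short ran through all protein-coding genes. The median log2 ratio with 4-ED was 0.23 over 98 genes of up to 200 bp, 0.32 over 134 genes of 201 to 300 bp, 0.16 over 201 genes of 301 to 400 bp, 0.11 over 222 of 401 to 500 bp and 0.04 over 690 of 501 to 750 bp. It was -0.03 over 749 genes of 751 to 1000 bp and -0.05 over 1244 of 1001 to 1500 bp. Of the genes of 201 to 300 bp 23.1% rose, and of those of 1001 to 1500 bp 0.724%. With Dox the medians of the classes up to 500 bp lay between -0.02 and 0.01, and with Tet between 0.11 and 0.20. The controls are shared by the 3 comparisons and the tables used here hold no value per culture, so whether the compounds differ here could not be tested. Within a list, long and short members therefore have to be read apart, and the part of transcript length or library selection in the rises of short genes was not tested.

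**Figure D4:**
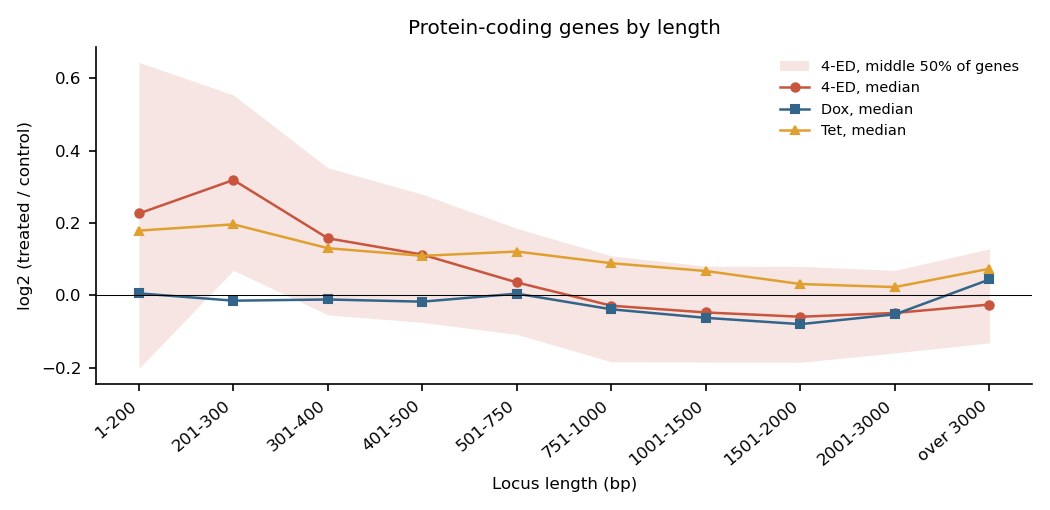
Median log2 ratio of treated over control value (vertical axis) of protein-coding genes at or above a mean of 10 FPKM with 4-ED, by locus length in bp (horizontal axis), for 4-ED (circles), Dox (squares) and Tet (triangles), with the middle 50% of genes shaded for 4-ED. The 4-ED median falls from 0.32 at 201 to 300 bp to -0.05 at 1001 to 1500 bp, while the Dox median lies between -0.08 and 0.04 throughout.

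Of the 138 short loci that rose, 85 were protein-coding, 34 were small nucleolar or spliceosomal RNAs, 5 were tRNAs and 14 were other loci. Of the 21 that fell, 14 were protein-coding and 4 were small nucleolar RNAs. Small nucleolar RNAs guide modification of ribosomal RNA, the H/ACA family to pseudouridine and the C/D family to methylation of the ribose. Examples of each are printed for the comparison of the families that follows. In the H/ACA RNAs snR35 (chrXV:759326-759529, minus strand) and snR49 (chrXIV:716120-716284, plus strand) capitals mark the ACA near the 3′ end, and in the C/D RNA snR72 (chrXIII:298554-298651, plus strand) the C box near the 5′ end and the D box near the 3′ end.
snR35: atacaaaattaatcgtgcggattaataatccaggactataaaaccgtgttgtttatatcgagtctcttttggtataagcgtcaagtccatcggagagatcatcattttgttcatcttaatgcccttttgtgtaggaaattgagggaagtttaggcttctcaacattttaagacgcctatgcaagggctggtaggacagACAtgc
snR49: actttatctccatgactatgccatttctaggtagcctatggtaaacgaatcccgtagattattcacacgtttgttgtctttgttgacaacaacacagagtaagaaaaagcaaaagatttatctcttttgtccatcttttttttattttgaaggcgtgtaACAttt
snR72: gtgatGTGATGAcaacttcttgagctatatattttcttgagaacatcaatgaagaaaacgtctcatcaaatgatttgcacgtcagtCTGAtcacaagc
All 30 H/ACA RNAs had ratios above 0, 19 rose and 0 fell, and their median was 0.78. Of the 37 C/D RNAs 20 had ratios above 0, 11 rose and 5 fell, and the median was 0.14. Of all short loci 17.4% rose and 2.64% fell, with a median of 0.19. The ratios differed with level. Over all small nucleolar and spliceosomal RNAs under 500 bp the median was 0.59, and at a mean of at least 100 FPKM it was 0.21. snR49 rose from 3.93 to 28.8 FPKM (2.87), snR189 from 11.6 to 43.7 FPKM (1.92) and snR35 from 118 to 358 FPKM (1.60). The C/D RNA snR72 fell from 117.5 to 14.1 FPKM (-3.06), snR74, from the same cluster on chromosome XIII, from 284 to 90.4 FPKM (-1.65), and snR54 from 104.5 to 34.0 FPKM (-1.62). snR73 of that cluster rose from 71.7 to 186 FPKM (1.38), so that its members did not move together. The families also differ in length. All 30 H/ACA RNAs exceed 120 bp with a median of 202 bp, while 31 of the 37 C/D RNAs have 120 bp or less, and the 6 longer C/D RNAs had a median ratio of 0.48. Family and length cannot be told apart in these values. With Dox the medians were 0.00 for H/ACA and -0.09 for C/D RNAs, and with Tet 0.28 and -0.04.

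Several other classes of stable RNA had medians above 0, beside 0.19 for all short loci, of which 17.4% rose and 2.64% fell. The 6 spliceosomal RNAs, of which snR7-L and snR7-S share a locus, had ratios above 0, 5 rose, and the median was 1.06. Among them snR6, the U6 RNA, rose from 5.67 to 23.2 FPKM (2.03), where the ratios with Dox and Tet were 2.45 and 2.32. Both U3 RNAs rose, snR17a from 66.0 to 170.2 FPKM (1.37) and snR17b from 7.84 to 15.9 FPKM (1.02). SCR1, the RNA of the signal recognition particle, rose from 159 to 379 FPKM (1.25) and RPR1, the RNase P RNA, from 129 to 270.4 FPKM (1.07), while NME1, the RNase MRP RNA, had 0.56. The nuclear 5S ribosomal RNA loci RDN5-1 to RDN5-6 had ratios between 0.38 (RDN5-2) and 0.79 (RDN5-4). Of 6 tRNA genes at this level 5 rose, among them tS(UGA)E, the gene of SUP19, from 71.6 to 230.0 FPKM (1.68) and tS(AGA)D2 (1.73), all for serine. tS(AGA)D2 has further copies in the genome, and tS(AGA)H had the same control value of 30.1 FPKM, so that their reads may have been divided. Most of these RNAs carry no poly(A) tail in the cell, and the libraries were made from selected mRNA. The part of selection in their rises was not tested.

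**Figure D5:**
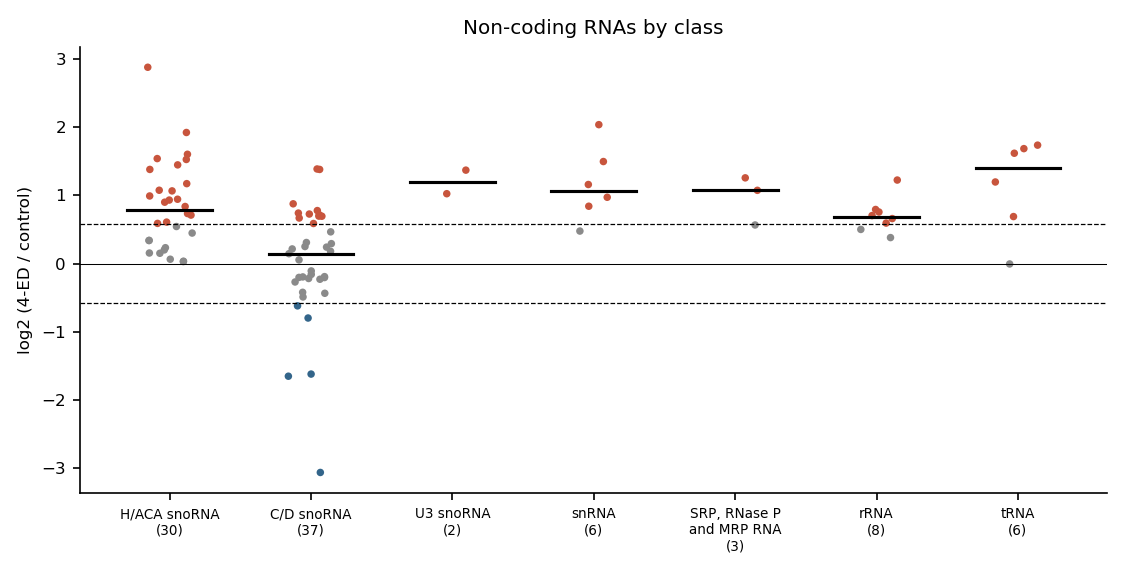
Log2 ratio of the 4-ED value over the control value (vertical axis) of non-coding RNAs at a mean of at least 10 FPKM, by class, with the number of RNAs in parentheses. Each point is an RNA, red past 1.5-fold higher and blue past 1.5-fold lower, bars are medians and dashed lines mark 1.5-fold. The H/ACA RNAs all lie above 0, while the C/D RNAs reach down to -3.06.

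Among the short loci with the largest changes that remain, YBL100W-C rose from 5.35 to 38.8 FPKM (2.86), YLR149C-A from 14.6 to 83.6 FPKM (2.52) and YHR022C-A from 59.4 to 182 FPKM (1.62). All are frames of 120 bp or less with no described role here. They belong to the reading frames named with a letter suffix, most of which were annotated late. Of these, 236 short ones lay at this level, with 54 risen, 11 fallen and a median of 0.26. Over all short loci 17.4% rose, 2.64% fell and the median was 0.19. Of 59 long ones 4 rose and 0 fell, beside 0.888% and 1.42% of all long genes. Among the 4 were YMR075C-A and YMR316C-A, both at 0.68, whose loci overlap others. ADF1, which lies opposite FYV5, fell from 71.6 to 19.2 FPKM (-1.90). The counting is not stated to use strand, so that its reads and those of its partner cannot be told apart. YKL162C-A fell from 15.4 to 5.22 FPKM (-1.56), YDL240C-A from 24.2 to 9.63 (-1.33), YOR381W-A from 18.2 to 7.87 (-1.21) and YEL008C-A from 22.4 to 10.3 (-1.12). The YEL008C-A locus overlaps another listed locus.

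Finally, the values with 4-ED were set beside those with Dox and Tet at the same dose of 1.5 µg/ml. Each ratio comes from its own table, the same controls stand under all of them, and no difference between compounds could be tested. SFC1 had log2 ratios of 1.33 with 4-ED, 0.84 with Dox and 1.15 with Tet, and ICL1 of 1.18, 0.53 and 1.15. PCK1 had 1.18, 0.67 and 1.12, and FBP1 0.99, 0.51 and 1.05. For these 4 genes the Dox value was the lowest. STL1 had 1.04, 1.07 and 1.23 and SCW11 -0.89, -0.82 and -0.82, close to each other. GPP2 had -0.94, -0.70 and -0.65, CAR1 -0.94, -0.90 and -0.55 and YNR014W -1.09, -1.23 and -0.74. Further genes are given in the same order of compounds. HXK2 had -0.88 with 4-ED, 0.00 with Dox and -0.24 with Tet, URA7 -1.09, -0.28 and -0.66 and FUR1 -0.89, -0.44 and -0.29. CPA1 had -0.68, -0.09 and 0.01, ILV5 -0.69, -0.11 and -0.09, HIS6 -0.73, -0.07 and -0.08, and YDJ1 -0.69, -0.14 and -0.20. GAP1 had 0.72, -0.15 and 0.10, GDH1 0.69, -0.14 and 0.27, and MDH2 0.74, 0.03 and 0.44. By list, the median of ribosome biogenesis was -0.12 with 4-ED, 0.05 with Dox and 0.08 with Tet, that of glycolysis -0.39, -0.28 and -0.10, and that of cohesion and checkpoint genes 0.35, 0.55 and 0.67.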

How the data were processed

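Libraries selected for mRNA were made with TruSeq kits from 3 cultures per group and sequenced by the authors in a single NextSeq run. The authors checked reads with FastQC, aligned them by Bowtie2 against R64 and quantified genes in Cuffdiff on an Ensembl annotation. The versions of these tools are not given in the sources used here. The deposited tables hold FPKM, 1 value per group combining 3 libraries, and the authors' own fold changes, test statistics, p-values and q-values, which were not used. Counts and depth per library were not analysed here, so no test or interval could be computed.

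From the 4-ED table, rows with status OK were kept and log2 of the 4-ED over the control value was computed with Python 3, numpy and pandas. A 1.5-fold ratio at a mean of at least 10 FPKM served as the limit. The limit was also applied to made-up ratios set either well past it or well inside it. That run could only return what was put in, and says nothing about noise in these data. Of 7080 loci, 6121 matched a RefSeq gene of the same build by identifier, and RefSeq gave symbols and the protein-coding class. Length came from the locus column, which spans overlapping genes together. 77 long genes have a RefSeq length under 500 bp. Named were the 15 long genes and 8 short loci with the largest rise and fall each, list members past the limit, the highest and lowest member of lists with none, and further genes chosen after their values were seen. The members and the 45 lists were chosen with earlier results of these data known. Control values in the Dox and Tet tables were 1.02 and 1.01 times those in the 4-ED table (medians). Motifs were searched in 600 bases upstream of start codons. Alternatives were another fold, level, added value, centring, length limit, status, coding class and overlap, and, after seeing the data, RefSeq lengths and the consensus motif. Some results are not reported here.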

Additional observations from a re-analysis of the deposited data

How the results depend on the processing

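The counts as reported were 42 long genes higher, 67 lower, 138 short loci higher and 21 lower. At 2-fold they were 5, 3, 38 and 11. At a mean of at least 100 FPKM they were 26, 18, 81 and 8, so that more long genes then rose than fell (59.1% of those past the limit, beside 38.5% as reported), and the shares at 2-fold were 62.5% for long genes and 77.6% for short loci. With no filter on low values 73 long genes were higher and 44 short loci lower. With a length limit of 300 bp 69 long genes were higher, and with 1000 bp 26 long genes were higher and 33 short loci lower. Counting as coding every locus with the identifier form of a reading frame gave 93 long genes higher, 53.1% of those past the limit. The other counts stayed within 1.5 times, including those with 1 FPKM added, centring on the median of -0.02, any test status, overlapping loci left out and, added after the data were seen, RefSeq lengths. Adding 1 FPKM moved 0 list medians by more than 0.1, while a mean of at least 100 FPKM moved 16 of 51 and no filter 3 of 54. Centring shifts every ratio alike by 0.02, so it could move none by more than 0.1. Adding 1 FPKM moved 4 of 46 named ratios by more than 0.1 (snR49 to 2.60, YBL100W-C to 2.65, snR6 to 1.86 and YKL162C-A to -1.40). No list median past the limit changed sign at a mean of at least 100 FPKM or with no filter. Named ratios were run only with 1 FPKM added and with centring. Neither can turn the sign of a ratio past the limit, so the kept signs there show nothing. Of the list medians inside the limit, 5 of 51 turned sign at a mean of at least 100 FPKM, those of zinc and phosphate uptake (-0.14 to 0.25), ribosome biogenesis (-0.12 to 0.21), cAMP and protein kinase A (-0.20 to 0.04), nitrogen catabolite repression (0.07 to -0.01) and mitochondrial ribosomal proteins (-0.01 to 0.03). Centring turned 3 of 54, those of the respiratory chain, mitochondrial ribosomal proteins and cyclins, each from -0.01 to 0.01. The causes were not tested. Leaving out a culture was not run, since the tables hold no value per culture. No paired analysis was possible because each group has 1 combined value.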
